A study of Mus musculus with 102 samples.

Results

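Expression in 5 thalamic nuclei of the mouse was compared with that in 42 other regions of the central nervous system. The nuclei were the mediodorsal nucleus (MD), the ventral anterior and ventrolateral nuclei as 1 sample (VA/VL), the ventral posteromedial and posterolateral nuclei as 1 sample (VPM/VPL), the lateral geniculate body (LG) and the medial geniculate nucleus (MG), with 2 arrays each. They were picked by name, as the 10 of 102 arrays with these titles. The other group was every further region except the habenular nucleus, retina, pituitary and pineal, and held 84 arrays of 42 regions. By division, 17 were telencephalic, 12 hypothalamic and 6 mesencephalic, and the rest were 3 cerebellar, 2 pontine and 2 spinal. All of them came from adult male Balb/c mice aged 7 to 8 weeks, and the labels name no allele or treatment for any region. The mice had lived in 12 h of light and 12 h of dark, and tissue was taken under these conditions or in constant darkness. From brain slices of 0.5 mm, regions were punched on both sides with a needle of 0.5 mm, at 6 time points 4 h apart. Total RNA was then pooled over mice and time points, so an array averages over animals and over the day, and the 2 arrays of a region are its only replicates. A punch takes whatever cells lie inside it, and some of these punches join neighbouring nuclei.

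The thalamus carries sensory, motor and limbic signals to the cerebral cortex. Its relay neurons are excitatory and use glutamate, loaded into vesicles by the transporter *Slc17a6*. LG relays vision, MG hearing and VPM/VPL touch, VA/VL serves movement, and MD is the partner of the prefrontal cortex. In rodents the inhibitory GABA neurons acting on the relay cells of most nuclei lie largely outside them. Many are in the reticular nucleus, a thin shell along the side of the thalamus, while LG also has interneurons of its own. The transcription factor *Tcf7l2* marks the thalamus from early development on, and relay neurons are known for switching between tonic firing and bursts driven by T-type calcium channels.

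The values are log2 expression values, made by RMA from Affymetrix probe sets. A probe set is a group of short probes against a transcript. Levels of different probe sets cannot be set against each other. Over all arrays they ran from 3.88 to 14.87, and the medians of the 10 thalamic arrays lay between 7.35 and 7.39. The 2 arrays of a region were averaged, and the 5 thalamic means were tested against the 42 others with limma over 45037 probe sets, so the errors given are standard errors over regions. By the study's methods the collection was repeated in full for the second replicate, so both are pools of their own, and the p-values of this test measure the spread between regions. A probe set was called when its Benjamini-Hochberg adjusted p was under 0.05. The test called 2000 probe sets (4.44%), 1332 higher in the thalamus (2.96%) and 668 lower (1.48%). With the brightest probe set of each of 18193 genes, 5.44% of the genes were called, 3.36% higher and 2.07% lower. Of the higher ones 373 differed by at least 1 and 92 by at least 2 on the log2 scale, and of the lower ones 166 and 22. With the 94 arrays as units and the error taken between the 2 arrays of a region, 21056 were called (46.8%). That share is over all probe sets, while genes of a list stand by their brightest probe set, so the bases differ. The pairs of arrays were close to each other except in VA/VL, where the dissimilarity (1 minus Pearson's r of linear values) was 0.0164, against 0.0027 to 0.0059 in the other nuclei. VA/VL replicate 1 lay nearer to LG replicate 1 (0.0149) and VA/VL replicate 2 nearer to VPM/VPL replicate 1 (0.0080). Leaving out VA/VL replicate 1 gave 2220 calls, leaving out its replicate 2 gave 2011, and leaving out the nucleus gave 1055. Without LG the count was 1226, without MD 1276 and without VPM/VPL 1096, with fewer samples in each. The nuclei were collected in 2 of 4 sampling periods, VA/VL and LG in period 1 and the others in period 2. Within period 1, against its 15 other regions, 377 probe sets were called, and within period 2, against 15 others, 789 were called.

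Several markers of the thalamus were high in every nucleus. *Slc17a6* had 12.79 in MD, 12.19 in VA/VL, 12.13 in VPM/VPL, 12.21 in LG and 12.17 in MG, against 5.66 to 12.57 in the other regions (median 10.46). It lay above the median of the other regions in every nucleus, but regions such as the mammillary body reached the same level, and its difference of 2.32 ± 0.91 had an adjusted p of 0.146. In such pieces of tissue, fewer cells of a type and less RNA per cell cannot be told apart. *Tcf7l2*, *Prkcd*, *Rora*, *Lef1* and *Ntng1* were high in all 5 nuclei, as described below. *Gbx2* and *Calb2* were not: both were highest in MD and MG, with LG between for *Calb2*. The habenula lies next to MD, and the mean level of its 13 measured marker genes was 6.66 to 6.96 over the nuclei, against 11.00 in the habenular nucleus. Of these genes limma called 0, with 1 at an unadjusted p under 0.05 and 9 by the test on arrays (46.8% of all probe sets).

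The strongest difference was that of *Tnnt1*, which encodes the troponin T of slow skeletal muscle. It had 10.94 in MD, 12.35 in VA/VL, 12.63 in VPM/VPL, 12.66 in LG and 12.75 in MG, against 6.02 to 8.56 in the other regions with a median of 6.42. All thalamic arrays lay above all others, the nearest region being the superior colliculus. The difference was 5.62 ± 0.26 (49.2-fold, adjusted p = 4.71e-22), and MD stood below the other nuclei by more than 1 unit. *Synpo2* encodes an actin-binding protein related to synaptopodin. Its levels were 11.24 in MD, 11.18 in VA/VL, 11.16 in VPM/VPL, 10.99 in LG and 10.95 in MG, against 5.43 to 8.30 elsewhere (median 5.98). The nuclei did not differ detectably for it (adjusted p among them 0.612), and the difference from the other regions was 4.98 ± 0.23 (adjusted p = 8e-22). Of its 4 probe sets 2 were called higher. *Prkcd*, the delta form of protein kinase C, had 13.14 in MD, 13.45 in VA/VL, 13.47 in VPM/VPL, 13.16 in LG and 13.00 in MG, against 7.93 to 12.11 elsewhere (median 8.35). The lateral septal nucleus held that highest other level and the dentate gyrus the next, 10.69. The difference was 4.58 ± 0.38 (adjusted p = 5.98e-13).

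The promoters of these genes, the strongest with no overlap between any thalamic array and any other, are shown from RefSeq on build GRCm38.p6. Each run covers 250 bases before the transcription start and 50 after it, 5′ to 3′ on the gene's strand, with the motif TATAAA, searched on both strands (TTTATA when reversed), in capitals. *Prkcd* has a second annotated promoter, without the motif. The run of *Tnnt1* is chr7:4515926-4516225, that of *Synpo2* chr3:123236100-123236399 and that of *Prkcd* chr14:30626159-30626458, all on the minus strand.
Tnnt1: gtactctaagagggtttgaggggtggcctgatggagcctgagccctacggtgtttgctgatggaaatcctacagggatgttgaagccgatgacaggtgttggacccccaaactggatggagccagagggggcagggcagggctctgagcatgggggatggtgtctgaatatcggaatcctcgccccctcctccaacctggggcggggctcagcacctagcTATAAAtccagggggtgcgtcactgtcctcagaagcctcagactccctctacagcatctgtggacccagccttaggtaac
Synpo2: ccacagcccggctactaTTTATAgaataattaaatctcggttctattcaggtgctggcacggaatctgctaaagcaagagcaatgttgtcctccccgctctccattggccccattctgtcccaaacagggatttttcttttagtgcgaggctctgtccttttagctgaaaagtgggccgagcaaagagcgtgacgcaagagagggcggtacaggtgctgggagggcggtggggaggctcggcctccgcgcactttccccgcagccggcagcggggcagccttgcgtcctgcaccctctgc
Prkcd: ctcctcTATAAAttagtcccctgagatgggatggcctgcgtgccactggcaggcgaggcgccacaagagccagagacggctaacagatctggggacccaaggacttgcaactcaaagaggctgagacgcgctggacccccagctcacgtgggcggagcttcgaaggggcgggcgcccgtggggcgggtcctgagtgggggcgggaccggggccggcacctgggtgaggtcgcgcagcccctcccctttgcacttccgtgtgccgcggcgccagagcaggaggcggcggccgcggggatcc
In *Tnnt1* the motif starts 30 bases before the start, in *Synpo2* it lies 233 bases before it on the opposite strand, and in *Prkcd* 244 bases before it. It occurred in 13.6% of all 32851 promoters in 6 of 25 promoters (24%) of the named higher genes, of which 19 of 20 were matched, and in 7 of 72 promoters (9.72%) of the genes with no overlap between arrays, of which 46 of 61 were matched. The motif ATCAAAG (both strands searched), bound by TCF and LEF proteins, was found in 3.73% of all promoters and in 3 of these 72 (4.17%), but in 0 of the 25. TAGGTCA, searched alike and bound by ROR proteins, was found in 2.61% of all promoters and in 0 of the 72 and the 25. A match describes letters only, and no match says only that these letters are not in this window.

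Absence of overlap was rare over the array as a whole. All 10 thalamic arrays lay above all 84 others in 96 probe sets (0.213%), which name 61 genes, and below all others in 5 probe sets (0.0111%). These shares are over all probe sets, while the 20 higher genes were chosen partly by this overlap. On region means the counts were 192 above (0.426%) and 29 below (0.0644%). Of the 20 genes with the largest positive difference whose thalamic arrays lay above at least 40 of the other regions, 12 had no overlap at all. Within sampling period 1, 15 of these 20 were called, and within period 2, 19, all of them higher in both periods. No call of the 20 was lost when a nucleus or a thalamic array was left out. The 20 were chosen on these same arrays for large differences and little overlap, so these counts largely follow from the choice.

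**Figure D1:**
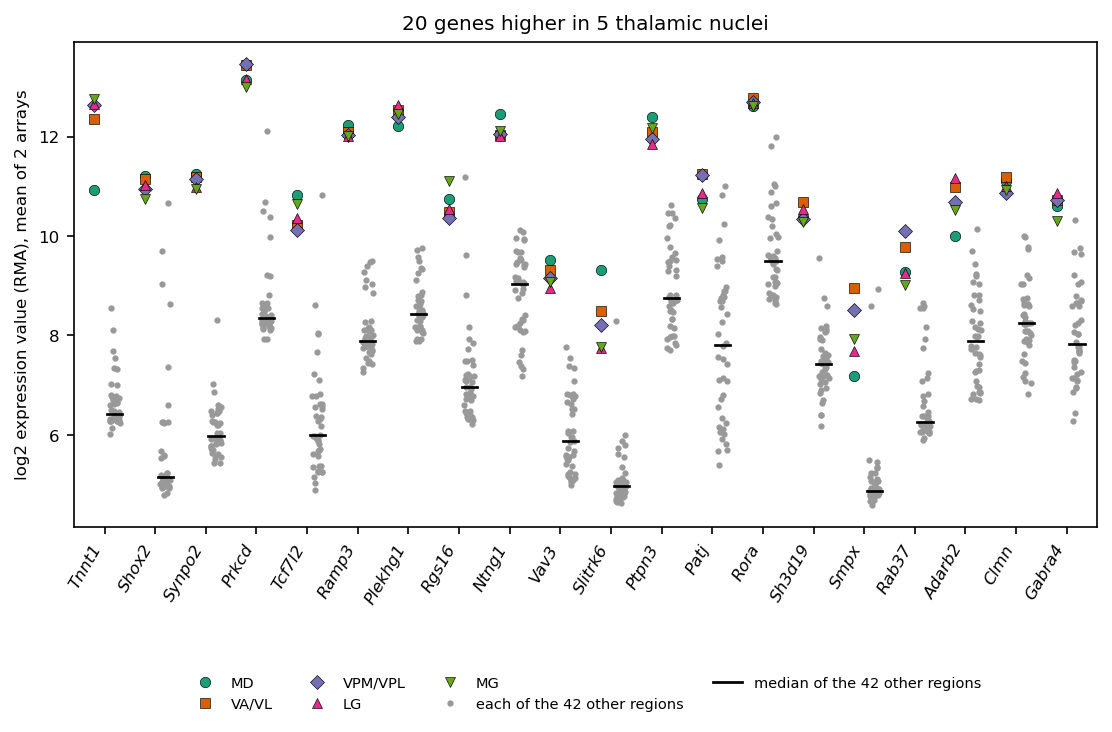
Log2 expression values (RMA, mean of 2 arrays) of the 20 genes with the largest positive differences, with the 5 thalamic nuclei as coloured symbols on the left of each gene and each of the 42 other regions as a grey point on the right, the black line marking their median. *Tnnt1* sits at 10.94 to 12.75 in the nuclei, above 8.56 in the highest other region, while single other regions come close to the thalamic levels or reach them for *Shox2*, *Tcf7l2*, *Rgs16*, *Slitrk6*, *Adarb2* and *Gabra4*, and the cerebellar cortex does for *Patj* and *Smpx*.

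Signalling and adhesion genes followed. *Ramp3* encodes an accessory protein that changes the ligand choice of the calcitonin receptor family. It had 12.25 in MD, 12.09 in VA/VL, 12.05 in VPM/VPL, 12.02 in LG and 12.02 in MG, against 7.27 to 9.50 elsewhere (median 7.90), a difference of 4.00 ± 0.27 (adjusted p = 3.58e-16). The nuclei were nearly level and far above the cerebellar nucleus, the highest other region. *Plekhg1*, an exchange factor for small GTPases, had 12.22 in MD, 12.54 in VA/VL, 12.39 in VPM/VPL, 12.65 in LG and 12.45 in MG, against 7.89 to 9.77 elsewhere (median 8.44). Its difference was 3.88 ± 0.23 (adjusted p = 3.6e-18). *Vav3*, of another family of such factors, had 9.52 in MD, 9.33 in VA/VL, 9.16 in VPM/VPL, 8.97 in LG and 9.09 in MG, against 4.98 to 7.77 elsewhere (median 5.87), a difference of 3.20 ± 0.35 (adjusted p = 2.03e-09). *Rgs16* encodes an activator of the GTPase of Gi and Gq proteins. It was high in MD (10.75), VA/VL (10.48), VPM/VPL (10.36), LG (10.54) and MG (11.12), against 6.22 to 11.20 elsewhere (median 6.97). The suprachiasmatic nucleus had that 11.20, above all nuclei, and the next region, the ventral subparaventricular zone, 9.63. Its difference was 3.49 ± 0.42 (adjusted p = 2.89e-08). *Ntng1* encodes netrin-G1, a membrane-anchored protein of axons. It had 12.46 in MD and 12.02 to 12.11 in the other nuclei, against 7.19 to 10.13 in the other regions (median 9.04), a difference of 3.30 ± 0.37 (adjusted p = 4.53e-09).

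The remaining genes of the 20 covered a wide range of functions. *Slitrk6*, a membrane protein with leucine-rich repeats, differed by 3.20 ± 0.28 with 9.31 in MD, 8.50 in VA/VL, 8.22 in VPM/VPL and 7.76 in LG and MG, against a median of 4.97. The mammillary body, at 8.29, was the highest other region, and the next, the ventral tegmental area, had 6.00. *Ptpn3*, a tyrosine phosphatase of the cell cortex, differed by 3.15 ± 0.37. *Patj*, a PDZ scaffold of tight junctions, differed by 3.10 ± 0.67, with the cerebellar vermis (11.02) inside the thalamic range of 10.56 to 11.25. Of the 4 probe sets of *Patj* 2 were called. *Sh3d19* (2.98 ± 0.29), the small GTPase *Rab37* (2.83 ± 0.37) and the actin-binding *Clmn* (2.71 ± 0.34) had no overlap with any other region. *Smpx*, a small protein of striated muscle, ran from 7.19 in MD to 8.96 in VA/VL, against 4.59 to 8.93 elsewhere with a median of 4.88. It was the second gene of muscle among the 20, and the cerebellar cortex (8.93 in the lobe, 8.59 in the vermis) alone shared its level. *Adarb2*, a relative of the RNA-editing enzymes, was highest in LG (11.16) and lowest in MD (10.01), against 6.70 to 10.14 elsewhere (median 7.89), with the highest level in the anterior olfactory bulb.

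Many transcription factors of the thalamus were higher there. Of 23 measured factors linked to thalamic development, 9 were higher and 0 lower, with a median difference of 0.74, against 3.36% higher and 2.07% lower and a median of -0.0024 over all genes. The habenular nucleus, left out of the comparison, had a mean level of 9.49 over these genes, against 8.51 to 9.02 in the nuclei. Against the mesencephalon 7 of the 23 were higher (2.58% of all genes) and 2 lower (2.81%). The list was drawn up with earlier results of these data known, so its counts are a description. *Shox2*, which was not on it, differed most. This homeobox gene had 11.21 in MD, 11.15 in VA/VL, 10.95 in VPM/VPL, 11.03 in LG and 10.76 in MG, against 4.79 to 10.67 elsewhere (median 5.14). The inferior colliculus, the midbrain station of hearing, had the 10.67 and the superior colliculus 9.71. The difference was 5.29 ± 0.61 (39.1-fold, adjusted p = 1.07e-08). *Tcf7l2*, the nuclear partner of beta-catenin, showed the same neighbour. It had 10.82 in MD, 10.22 in VA/VL, 10.13 in VPM/VPL, 10.36 in LG and 10.65 in MG, against 4.90 to 10.83 elsewhere (median 5.99), where the inferior colliculus had 10.83 and the periaqueductal gray 8.62. The difference was 4.14 ± 0.50 (adjusted p = 3.01e-08), and all 4 of its probe sets were called. The habenular nucleus had 10.53 for *Tcf7l2*, within the range of the nuclei. Against the mesencephalon alone the difference of *Shox2* was 2.70 ± 0.46 (adjusted p = 0.000102).

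*Lef1*, the other member of the TCF family called, had 9.98 in MD, 9.25 in VA/VL, 8.89 in VPM/VPL, 9.50 in LG and 9.13 in MG, against 6.84 to 8.70 in the other regions (median 7.32). Its difference of 2.02 ± 0.14 was smaller than that of *Tcf7l2*, but no thalamic array overlapped with another region (adjusted p = 2.73e-15). *Rora*, a nuclear receptor best known from Purkinje cells, had 12.62 in MD, 12.78 in VA/VL, 12.70 in VPM/VPL, 12.69 in LG and 12.61 in MG, against 8.63 to 12.00 elsewhere (median 9.51). The cerebellar cortex lobe had the 12.00 and the vermis 11.81, and the difference was 3.04 ± 0.37 (adjusted p = 5.5e-08). Its relative *Rorb* was highest in VPM/VPL (11.44) and lowest in VA/VL, with 10.53 in LG, 10.75 in MD and 10.78 in MG, against 7.20 to 10.48 elsewhere (median 8.60), a difference of 2.05 ± 0.33 (adjusted p = 1.74e-05). *Prox1* was higher by 1.44 ± 0.28. *Zic1* was higher by 2.84 ± 0.80, with 12.38 to 13.07 in the nuclei, against 6.68 to 13.62 elsewhere, where the lateral septal nucleus had the 13.62. *Zic1* and *Zfhx3* (1.83 ± 0.53) lost their calls with any nucleus left out, with adjusted p up to 0.0901 and 0.112, and *Lhx9* (0.61 ± 0.15) lost its call without MD (adjusted p = 0.152).

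Some factors were thalamic in a part of the nuclei only. *Gbx2*, needed for the formation of the thalamus, had 9.13 in MD and 8.25 in MG, but 5.30 in VA/VL, 5.20 in VPM/VPL and 5.29 in LG, against 4.62 to 5.39 in the other regions (median 4.85). MD and MG thus stood far above every other region, and the other nuclei lay at the upper end of their range. The difference over all 5 was 1.75 ± 0.27 (adjusted p = 1.04e-05), 0.42 within sampling period 1 (adjusted p = 0.189) and 2.58 within period 2 (adjusted p = 0.00276). *Lhx2* showed the same split, with 8.88 in MD and 8.64 in MG, 6.70 in LG, 5.70 in VA/VL and 5.53 in VPM/VPL, against 5.14 to 10.40 elsewhere, and was not called (difference -0.59 ± 0.80). *Foxp2* had 11.10 in MD and 10.43 in MG and 8.89 to 9.53 in the other nuclei, against 6.80 to 11.20 elsewhere. For *Gbx2*, *Lhx2* and *Foxp2* the 5 nuclei differed with adjusted p of 5.48e-36, 4.58e-23 and 5.46e-11 (limma F test on arrays).

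Of 46 measured genes of Wnt signalling, 8 were higher (3.36% of all genes) and 0 lower (2.07%), with a median difference of -0.01. Besides *Tcf7l2* and *Lef1* these were the ligands *Wnt3* (0.99 ± 0.11) and *Wnt9a* (0.96 ± 0.18), the receptors *Fzd8* (0.68 ± 0.16) and *Fzd10* (0.18 ± 0.05), and the inhibitors *Notum* (0.28 ± 0.05) and *Rnf43* (0.21 ± 0.06). *Wnt3* had 6.21 in MD, 6.00 in VA/VL, 5.52 in VPM/VPL, 5.35 in LG and 5.18 in MG, against 4.42 to 5.42 elsewhere (median 4.62). *Fzd10* and *Rnf43* lost their calls when single arrays were left out, *Fzd10* without replicate 2 of VA/VL or VPM/VPL and *Rnf43* without any of 5 arrays (adjusted p up to 0.0535 and 0.185).

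Among 25 genes listed for relay neurons, 12 were higher (3.36% of all genes) and 0 lower (median difference 1.29), including several of those above. This list, too, was drawn up with earlier results of these data known. Of the 12, *Tnnt1*, *Synpo2*, *Prkcd*, *Plekhg1*, *Rgs16*, *Ramp3*, *Ntng1* and *Patj* had been picked above for large differences on these same arrays. The counts are therefore a description and no independent test of relay neuron genes. *Kitl*, the ligand of the Kit receptor, was higher by 2.55 ± 0.41, *Pdp1*, a phosphatase that activates pyruvate dehydrogenase, by 2.60 ± 0.31, *Plcb4*, a phospholipase C, by 1.94 ± 0.51 and *Nsmf* by 1.26 ± 0.25. *Pdp1* had 12.48 in MD, 12.57 in VA/VL, 12.63 in VPM/VPL, 12.72 in LG and 12.32 in MG, against 8.26 to 11.66 elsewhere. *Plcb4* lost its call without MD, VA/VL or VPM/VPL (adjusted p up to 0.057). *Calb2*, a calcium-binding protein also on the list, had 11.87 in MD, 12.08 in MG, 9.86 in LG, 8.51 in VA/VL and 8.56 in VPM/VPL, against 8.25 to 13.29 elsewhere, and was not called.

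**Figure D2:**
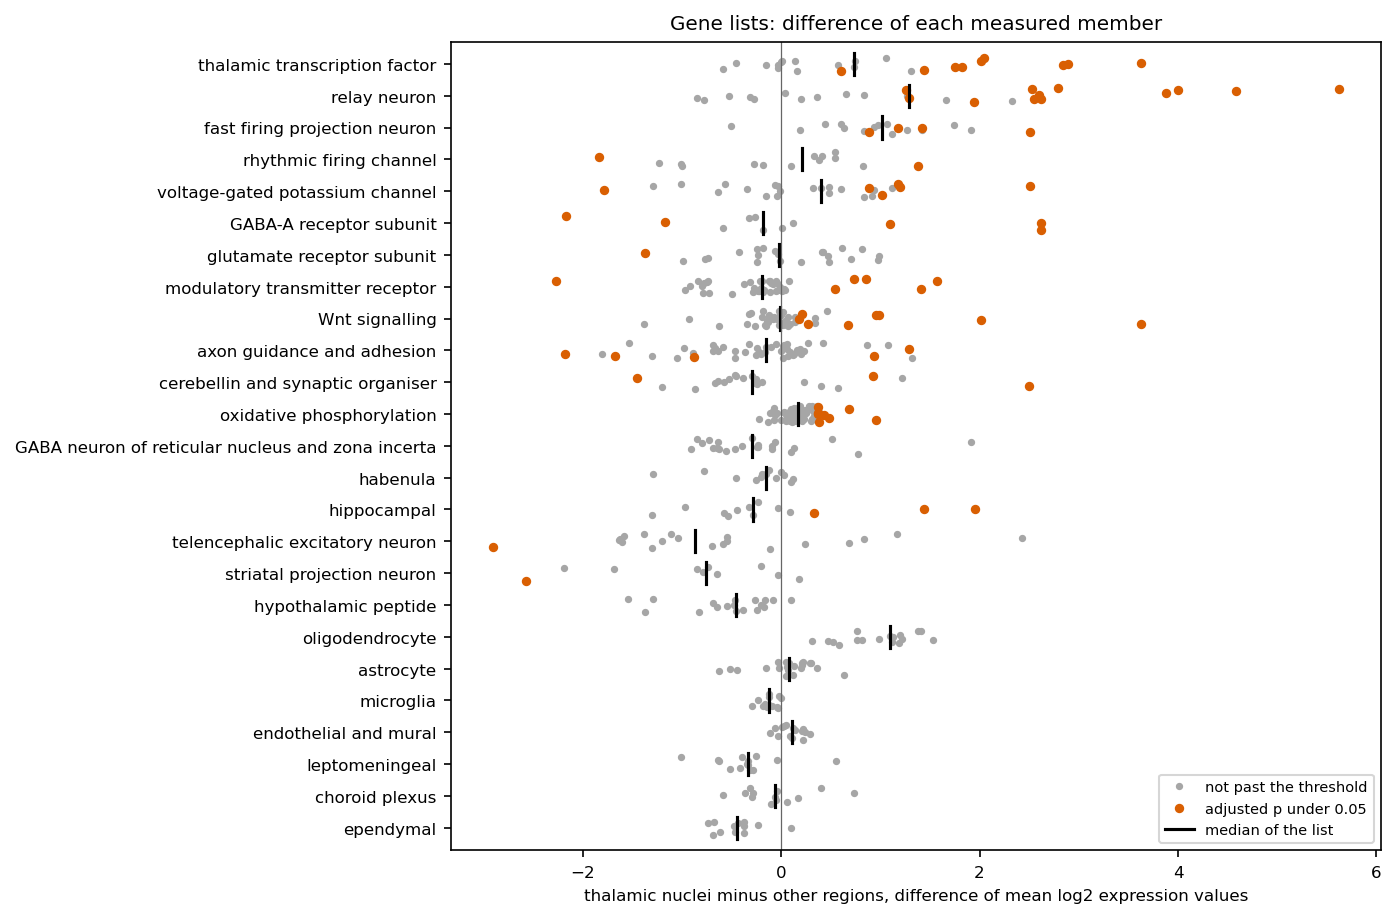
Difference of mean log2 expression values (thalamic nuclei minus other regions) of each measured gene of the gene lists, with genes past an adjusted p of 0.05 in orange and the list median as a black line. Relay neuron genes (median 1.29) and fast firing genes (1.02) lie mostly to the right, oligodendrocyte genes all lie to the right with 0 past the threshold, and telencephalic genes lie mostly to the left.

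Ion channels were called in both directions. *Cacna1g*, the T-type calcium channel that drives thalamic bursts, had 11.35 in MD, 11.04 in VA/VL, 10.55 in VPM/VPL, 10.83 in LG and 10.97 in MG, against 8.27 to 11.31 elsewhere (median 9.63). The difference was 1.38 ± 0.34 (adjusted p = 0.00792), and the cerebellar cortex lobe had the 11.31. *Kcnk2*, a potassium leak channel, was lower by 1.83, with 7.56 in VA/VL to 9.42 in MG, against a median of 10.03 in the other regions (SE 0.42, adjusted p = 0.00446). The other 12 of 14 measured genes for rhythmic firing did not pass the test, among them *Hcn2*, at 9.25 to 9.79 in the nuclei, against a median of 8.85.

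Genes of fast firing projection neurons, such as Kv3 channels and neurofilaments, had a median difference of 1.02, and 4 of 18 were higher (3.36% of all genes): *Kcnc2* (2.50 ± 0.54), *Scn1a* (1.42 ± 0.43), *Kcna2* (1.18 ± 0.34) and *Kcnc1* (0.88 ± 0.23). *Kcnc2*, a Kv3 channel that shortens the action potential, had 11.76 in MD, 12.08 in VA/VL, 11.95 in VPM/VPL, 11.90 in LG and 11.78 in MG, against 6.14 to 10.79 elsewhere, with no overlap between arrays. *Scn1a* and *Kcna2* lost their calls without any nucleus and *Kcnc1* without LG, VA/VL or VPM/VPL (adjusted p up to 0.141, 0.127 and 0.0882). Against the telencephalon 11 of the 18 were higher (10.3% of all genes) and against the hypothalamus 17 (10.8% of all genes). Against the mesencephalon limma called 0, with 6 at an unadjusted p under 0.05 and a median difference of 0.54. Of 25 Kv channels in all, 5 were higher and 1 lower (3.36% and 2.07% of all genes), with *Kcnq3* (1.20 ± 0.31) and *Kcna4* (1.02 ± 0.30) joining those above, both lost without some nuclei (adjusted p up to 0.0573 and 0.122). *Kcnh1* was lower by 1.78 (SE 0.35), at 7.04 to 7.79 in the nuclei, against 7.49 to 10.93 elsewhere.

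Subunits of the GABA-A receptor were called in both directions, 3 of 11 higher and 2 lower (3.36% and 2.07% of all genes). The alpha4 and delta subunits form receptors outside the synapse that carry tonic inhibition. *Gabra4* had 10.60 in MD, 10.72 in VA/VL, 10.72 in VPM/VPL, 10.87 in LG and 10.30 in MG, against 6.28 to 10.33 elsewhere (median 7.82), a difference of 2.62 ± 0.42 (adjusted p = 1.45e-05). The lateral caudate putamen, at 10.33, was the one other region above MG. *Gabrd* had 10.11 in MD, 10.63 in VA/VL, 10.16 in VPM/VPL, 10.34 in LG and 9.82 in MG, against 5.85 to 10.94 elsewhere (median 7.13), a difference of 2.62 ± 0.68 (adjusted p = 0.015, up to 0.0676 without LG, VA/VL or VPM/VPL). *Gabrb2* was higher by 1.09 ± 0.32, a call that was lost with any nucleus left out (adjusted p up to 0.14). *Gabra5* and *Gabra2*, both alpha subunits, were lower. *Gabra5* had 7.61 in MD, 7.15 in MG, 6.47 in LG, 5.68 in VPM/VPL and 5.52 in VA/VL, against 4.99 to 11.45 elsewhere (median 8.81), a difference of -2.17 ± 0.62 (adjusted p = 0.0304, up to 0.148 without LG, VA/VL or VPM/VPL). *Gabra2* had 8.00 to 9.09, against 8.61 to 10.82 elsewhere, a difference of -1.17 ± 0.27. Of 22 glutamate receptor genes only *Gria1* was called (5.44% of all genes), lower by 1.37 (adjusted p = 0.0496), and the call was lost without LG, MG, VA/VL or VPM/VPL and without any of 5 single arrays (adjusted p up to 0.251).

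Of 42 receptors for modulatory transmitters 5 were higher (3.36% of all genes) and 1, *Cnr1*, lower (2.07%). A positive difference was seen in 9 of the 42 (49.1% of all genes), and the median was -0.19. *Adra1b*, an alpha1 receptor for noradrenaline, had 9.19 in MD, 9.14 in VA/VL, 8.99 in VPM/VPL, 9.36 in LG and 8.69 in MG, against 7.27 to 8.57 elsewhere (median 7.58). All nuclei lay above all other regions, by 1.41 ± 0.13 on average (adjusted p = 9.42e-12). The nicotinic subunits *Chrna4* and *Chrnb2*, which assemble into the main receptor for nicotine in the brain, were higher by 1.57 ± 0.25 and 0.74 ± 0.12. *Chrna4* had 9.82 in MG to 10.38 in MD, against 7.82 to 10.32 elsewhere (median 8.38), where the substantia nigra had the 10.32. The histamine receptor *Hrh3* was higher by 0.86 ± 0.20 (adjusted p 0.0505 without MD), and the serotonin receptor *Htr7* by 0.54 ± 0.17, which lost its call with any nucleus left out and with any of 5 single arrays left out (adjusted p up to 0.278).

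Of 21 genes for synaptic organisers, *Lrrtm1* (2.50 ± 0.47) and *Lrrtm2* (0.92 ± 0.20) were higher and *Lrrtm4* was lower by 1.45 (SE 0.44), all encoding leucine-rich proteins of the postsynaptic membrane. Of all genes 3.36% were higher and 2.07% lower. *Lrrtm1* had 11.03 in MD, 11.08 in VA/VL, 10.89 in VPM/VPL, 11.15 in LG and 10.59 in MG, against 5.55 to 10.74 elsewhere (median 8.48). *Lrrtm4* lost its call without LG, MD, VA/VL or VPM/VPL and without replicate 1 of MG (adjusted p up to 0.198). Among 47 genes for axon guidance and adhesion, *Ntng1* and *Sema6a* (0.93 ± 0.23, adjusted p 0.0568 without MG) were higher, and *Efnb2*, *Unc5a* and *Pcdh8* lower. The higher genes were 4.26% and the lower ones 6.38% of the 47, against 3.36% and 2.07% of all genes. The call of *Unc5a* (-0.88 ± 0.26) was lost with any nucleus left out (adjusted p up to 0.13). The brightest probe set of *Ntng1*, which stands for it on the list, differed by 1.29. *Efnb2*, an ephrin, had 7.72 in LG to 7.99 in MG, against 7.99 to 11.33 elsewhere (median 9.25), a difference of -1.68 ± 0.36.

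The 20 lower genes were chosen by the size of the difference alone, while the 20 higher ones also had to lie above at least 40 other regions, so that the lists are not set against each other. Of the 20 with the largest negative difference, *Pxylp1* was the only one below all other arrays. This gene of proteoglycan synthesis had 5.31 in MD, 5.65 in VA/VL, 6.20 in VPM/VPL, 5.76 in LG and 6.13 in MG, against 7.24 to 11.02 elsewhere (median 8.68), a difference of -2.85 ± 0.38 (adjusted p = 3.08e-07). Of its 3 probe sets 2 were called. *Nptx1*, a pentraxin secreted at synapses, had 6.15 in MD, 5.89 in VA/VL, 6.26 in VPM/VPL, 7.14 in LG and 8.05 in MG, against 6.76 to 12.57 elsewhere (median 9.80). Its difference was -3.25 ± 0.64 (adjusted p = 0.00064), while its brighter probe set gave -1.20 (adjusted p = 0.0794). *Synpr*, of synaptic vesicles, had 7.04 in MD, 6.33 in VA/VL, 6.46 in VPM/VPL, 7.39 in LG and 7.55 in MG, against 7.07 to 12.36 elsewhere (median 9.71), a difference of -2.87 ± 0.56 (adjusted p = 0.000529). For all 3 genes the nuclei lay at or near the bottom of the range, with MG the highest for *Nptx1* and *Synpr*.

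Among the rest of the 20, *Ryr2*, a calcium release channel, had 6.19 in MD, 6.91 in VA/VL, 7.34 in VPM/VPL, 6.97 in LG and 7.47 in MG, against 7.08 to 10.66 elsewhere (median 9.20), a difference of -2.19 ± 0.35 (adjusted p = 1.98e-05). *Cacna1e*, the R-type calcium channel, had 8.64 in MD, 8.14 in VA/VL, 8.14 in VPM/VPL, 8.36 in LG and 9.08 in MG, against 8.70 to 11.64 elsewhere (median 10.42), a difference of -2.00 ± 0.33. The calcium sensors *Caln1* and *Hpcal4* were lower by 2.32 (SE 0.61) and 2.03 (SE 0.61), *Hpcal4* with 10.55 in MD and 8.22 in VPM/VPL. Further genes were the cannabinoid receptor *Cnr1* (-2.27 ± 0.53), the opioid precursor *Penk* (-2.57 ± 0.62), the neurotrophin receptor *Ntrk3* (-1.94 ± 0.31), the adhesion protein *Pcdh8* (-2.74 ± 0.63), *Cadps2* of dense-core vesicles (-2.53 ± 0.63), *Wscd2* (-2.04 ± 0.38), *Ly6h* (-2.01 ± 0.50) and *Lamp5* (-2.90 ± 0.82). *Penk* had 6.72 in MD but 8.95 in LG, and *Cadps2* 7.01 to 7.19 in most nuclei but 9.14 in MG. Only a part of the probe sets was called for *Cacna1e*, *Cnr1* and *Dkk3* (1 of 2 each). For *Neto1* 1 of 3 was called, for *Gda* and *Caln1* 2 of 3 each and for *Ntrk3* 6 of 8. For *Ryr2* and *Pcdh8* 2 of 2 were called. Of the 20, 10 lost their calls when a nucleus was left out: *Gda*, *Lamp5*, *Penk*, *Caln1*, *Gabra5*, *Hpcal4*, *Ly6h*, *6330403K07Rik*, *Neto1* and *Dkk3*. Without MD this held for *Gda*, *Lamp5*, *Penk*, *Caln1*, *6330403K07Rik*, *Neto1* and *Dkk3*, without VPM/VPL or VA/VL for the same genes apart from *Penk* and also for *Gabra5*, *Hpcal4* and *Ly6h*, without LG for *Gda*, *Lamp5*, *Gabra5*, *Hpcal4*, *Neto1* and *Dkk3*, and without MG for *Lamp5*, *Hpcal4* and *Neto1*. The highest adjusted p without a nucleus was 0.182, that of *Hpcal4*. *Neto1* also lost its call without replicate 1 of MG. Within sampling period 1, 2 of the 20 were called and within period 2, 6, all lower in both. As these genes were picked by their differences on the same arrays, the shared direction largely follows from the choice.

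**Figure D3:**
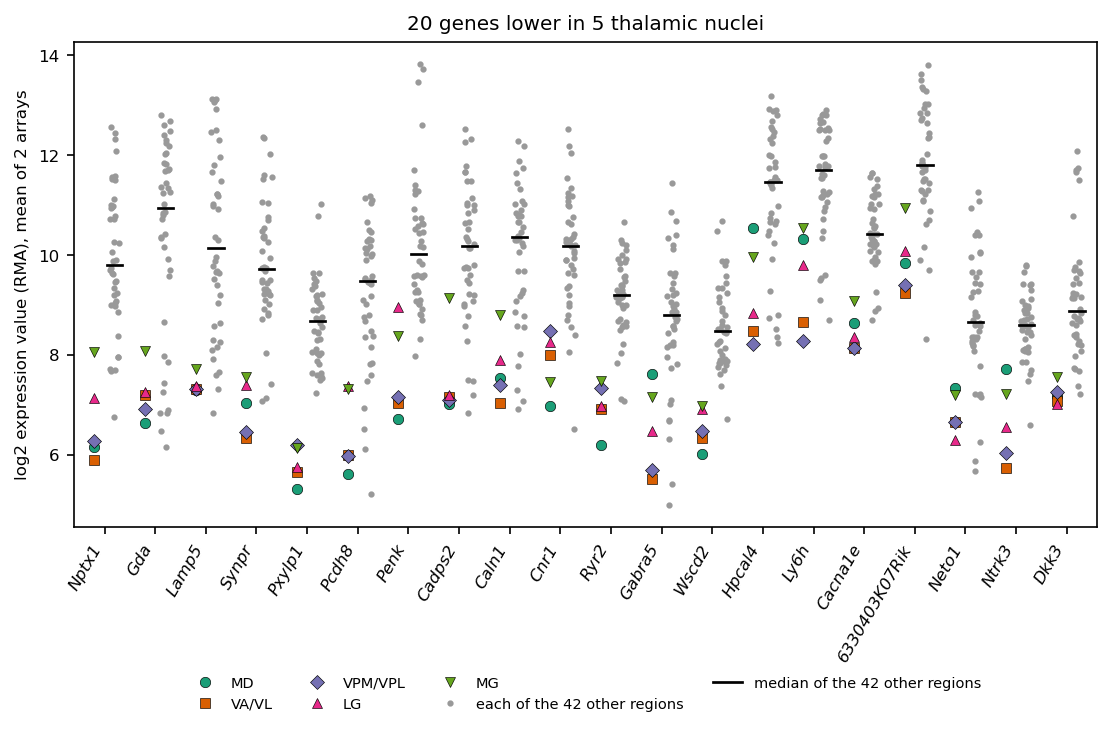
Log2 expression values (RMA, mean of 2 arrays) of the 20 genes with the largest negative differences, with the 5 thalamic nuclei as coloured symbols on the left of each gene and each of the 42 other regions as a grey point on the right, the black line marking their median. *Pxylp1* lies at 5.31 to 6.20 in the nuclei, below 7.24 in the lowest other region, and MG is the highest nucleus for *Nptx1*, *Gda*, *Lamp5*, *Synpr* and *Cadps2*.

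Set against single divisions of the brain, the thalamus differed from the telencephalon in 6844 probe sets (15.2%, 8.21% higher and 6.99% lower), from the hypothalamus in 9848 (21.9%, 9.81% higher and 12.1% lower) and from the mesencephalon in 1967 (4.37%, 2.46% higher and 1.9% lower). These comparisons share the thalamic arrays and use 17, 12 and 6 regions, so their counts are not ranked. The counts for a list depended on the division. Of 20 genes of telencephalic excitatory neurons, 1 was lower against all other regions, *Lamp5* (2.07% of all genes), with a median difference of -0.87. Against the telencephalon 16 of the 20 were lower (8.36% of all genes), with a median of -1.53. *Bcl11b* had 7.47 to 7.91 in the nuclei, against 6.68 to 12.53 elsewhere, and *Nrgn* 8.38 to 8.59 in 4 nuclei and 10.19 in MG, against 7.58 to 13.49. Of 18 hypothalamic peptides 9 were lower than in the hypothalamus (14.8% of all genes), and against all other regions limma called 0, with 2 at an unadjusted p under 0.05. Of 11 dopaminergic genes 4 were lower than in the mesencephalon (2.81% of all genes). Of 10 striatal genes only *Penk* was called against all other regions, as lower (2.07% of all genes), with 3 at an unadjusted p under 0.05. Against the telencephalon 4 of the 10 were lower (8.36% of all genes), against the hypothalamus 3 (14.8%) and against the mesencephalon 1 (2.81%).

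Myelin genes differed from the telencephalon and hypothalamus but not detectably from the mesencephalon. All 17 oligodendrocyte genes had a positive difference, with a median of 1.09, but limma called 0 against all other regions, with 10 at an unadjusted p under 0.05 and 17 by the test on arrays. Against the telencephalon 15 of them were higher (10.3% of all genes), against the hypothalamus 10 (10.8% of all genes) and against the mesencephalon 0 (2.58% of all genes). *Mobp*, a structural protein of myelin, had 12.09 in MD, 13.39 in VA/VL, 13.52 in VPM/VPL, 13.24 in LG and 12.73 in MG, against 7.77 in the lowest to 13.67 in the anterior spinal cord (median 11.80). The mean level of the 17 genes was 10.17 in MD, 11.24 in VA/VL, 11.38 in VPM/VPL, 11.17 in LG and 10.70 in MG, against 8.01 to 11.73 elsewhere (median 9.77). Its part in the other differences was not tested. Against all other regions limma called 0 genes of the lists for astrocytes, microglia, endothelium, meninges, choroid plexus, ependyma and blood, with 2 astrocyte genes and 1 choroid plexus gene at an unadjusted p under 0.05, and their mean levels lay within the range of the other regions. The test on arrays called 14 of 21 astrocyte, 6 of 13 microglial, 10 of 15 endothelial, 13 of 14 leptomeningeal, 7 of 13 choroid plexus and 12 of 12 ependymal genes, with 46.8% of all probe sets called. Against the telencephalon 9 astrocyte genes were higher (10.3% of all genes) and 2 lower, and against the hypothalamus 4 astrocyte and 10 ependymal genes were lower (14.8% of all genes). Of 13 hippocampal genes *Dsp* (1.96 ± 0.37), *Prox1* and *Iyd* (0.33 ± 0.05) were higher (3.36% of all genes). *Dsp*, a desmosomal plaque protein, had 7.53 in MD, 8.14 in VA/VL, 7.97 in VPM/VPL, 7.00 in LG and 7.08 in MG, against a median of 5.40 and 10.40 in the dentate gyrus. Of 9 genes of all neurons only *Map2* was called, lower by 0.65 (SE 0.12), while 2.07% of all genes were lower.

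Genes of oxidative phosphorylation showed a small shift. Of 81 measured, 8 were higher (3.36% of all genes) and 0 lower, and 73 of 81 had a positive difference (49.1% of all genes), with a median of 0.17 on the log2 scale, against -0.0024 over all genes. *Ndufa10* (0.68 ± 0.11) and *Ndufs3* (0.48 ± 0.09), both of complex I, were among them, as was *Cox6a2* (0.96 ± 0.16), the heart and muscle form of a subunit of cytochrome c oxidase. *Cox6a2* had 9.97 in MD, 8.92 in VA/VL, 8.63 in VPM/VPL, 8.94 in LG and 8.30 in MG, against 7.48 to 8.81 elsewhere (median 7.99), so that MD stood more than 1 unit above the highest other region and VPM/VPL and MG below it. Against the mesencephalon the median of the 81 genes was 0.07, with 8 higher (2.58% of all genes) and 0 lower (2.81%).

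Differences among the 5 nuclei were tested on the arrays, with the error between the 2 arrays of a region pooled over the 47 regions. This error may be too small for VA/VL, whose 2 arrays lay farther apart (dissimilarity 0.0164) than those of the other nuclei (0.0027 to 0.0059). Of all probe sets 7810 differed (17.3%), and each nucleus was then set against the mean of the other 4. MD differed in 5214 probe sets (11.6%, 6.23% higher and 5.35% lower) and VA/VL in 2542 (5.64%, 2.83% higher and 2.82% lower). VPM/VPL differed in 2058 (4.57%, 2.77% higher and 1.8% lower), LG in 1481 (3.29%, 1.44% higher and 1.85% lower) and MG in 1965 (4.36%, 2.06% higher and 2.3% lower). In dissimilarity of region means, VA/VL lay nearest to VPM/VPL (0.007946) and LG to VA/VL (0.007993), while MD and MG were nearest to each other (0.01249). MD was farthest from VA/VL, at 0.03378, nearly as far as from the inferior colliculus, the nearest region outside the thalamus, at 0.03916. For MG the inferior colliculus was at 0.02222, and VA/VL, its farthest nucleus, at 0.0208. VA/VL and LG were collected in sampling period 1 and the other nuclei in period 2. The part of the sampling period in these counts and distances was not tested.

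MD was very low in GABA genes. *Gad1*, the enzyme that makes GABA, had 6.29 and 6.32 on the arrays of MD, against 10.73 to 13.26 on those of the other nuclei, a difference of -6.22 ± 0.17 (adjusted p = 1.19e-34). Its means were 6.30 in MD, 12.98 in VA/VL, 13.17 in VPM/VPL, 12.64 in LG and 11.30 in MG, against 9.54 to 13.37 in the other regions (median 12.20). MD thus lay below every other region while VA/VL, VPM/VPL and LG lay above their median. *Gad2* (-4.14 ± 0.18) was also lowest in MD, then in MG, and highest in VPM/VPL, as was *Slc32a1*, the vesicular GABA transporter, with 6.50 in MD, 10.57 in VA/VL, 10.89 in VPM/VPL, 10.58 in LG and 10.04 in MG. Markers of the reticular nucleus and its surroundings moved with them. *Pvalb* had 9.55 in MD, 12.83 in VA/VL, 13.06 in VPM/VPL, 12.35 in LG and 10.13 in MG, *Isl1* had 6.50, 9.90, 9.95, 9.29 and 6.70 in the same order of nuclei, and *Six3* 7.36, 9.60, 9.90, 9.16 and 7.87. Of the 23 measured genes of this list, each by its brightest probe set, 18 differed among the nuclei. Of all probe sets, a different base, 17.3% did. The mean level of the 23 was 6.81 in MD, 8.39 in VA/VL, 8.46 in VPM/VPL, 8.28 in LG and 7.71 in MG, against 7.55 to 8.79 elsewhere (median 8.13) and 6.86 in the habenular nucleus. Against all other regions limma called 0 of the 23, with 1 at an unadjusted p under 0.05 and a median difference of -0.29. The test on arrays called 20, with 46.8% of all probe sets called by it. How far neighbouring GABA neurons within a punch took part in the differences among the nuclei was not tested. The oligodendrocyte genes, given above, had their lowest level in MD as well.

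**Figure D4:**
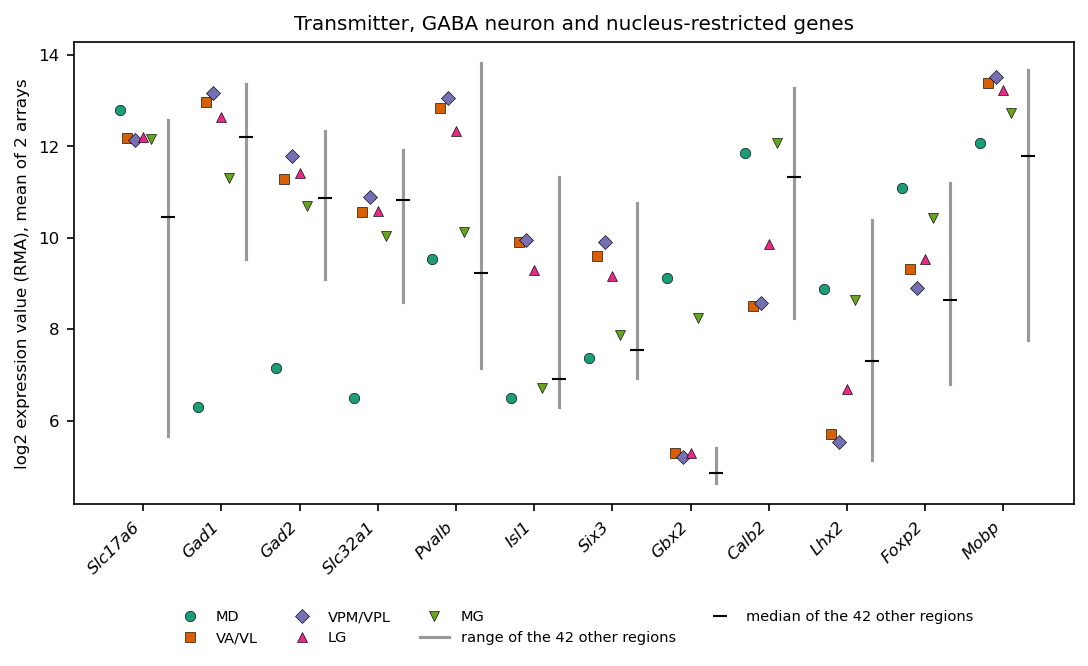
Log2 expression values (RMA, mean of 2 arrays) of 12 genes, with the 5 thalamic nuclei as coloured symbols, the grey line spanning the 42 other regions and the dash marking their median. *Gad1* lies at 6.30 in MD and at 11.30 to 13.17 in the other nuclei, and *Gbx2* at 9.13 in MD and 8.25 in MG, above the 5.39 of the highest other region.

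Each nucleus had genes with both arrays beyond the 8 of the other nuclei. In MD the largest positive differences were those of *Necab1*, a calcium-binding protein, with 11.77 and 11.89, against 5.91 to 9.52 in the other nuclei (4.43 ± 0.18, adjusted p = 2.22e-26), *Sntb1*, a syntrophin, with 7.79 and 8.18, against 4.39 to 4.88 (3.33 ± 0.14), and the C1q-like proteins *Cbln1* (3.18 ± 0.32) and *C1ql3* (3.12 ± 0.31), both organisers of synapses. *Necab1* in MD exceeded all 42 other regions, of which the retrosplenial cortex had the highest level (10.01). In MG several neuropeptides led. *Crh*, corticotropin-releasing hormone, had 8.57 and 8.60 in MG, against 4.01 to 4.52 in the other nuclei (4.31 ± 0.27, adjusted p = 8.94e-18), *Grp*, gastrin-releasing peptide, 9.85 and 9.74, against 6.37 to 7.36 (3.05 ± 0.20), and *Nts*, neurotensin, 9.06 and 9.05, against 6.47 to 7.78 (2.14 ± 0.20). The parathyroid hormone receptor *Pth2r*, whose ligand is itself a peptide of the posterior thalamus, had 8.84 and 8.41, against 5.28 to 7.37 (2.74 ± 0.12), above the 6.44 of the highest of the 42 other regions. For *Crh* the medial vestibular nucleus (10.37) and for *Grp* the ventral subiculum (11.32) were higher than MG. *Rgs4* (-1.68 ± 0.19) and *Gbe1* (-1.57 ± 0.12) were lowest in MG. The leptomeningeal list had its highest thalamic level in MG, 8.00, against 7.33 to 7.43 in the other nuclei.

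VA/VL, VPM/VPL and LG had smaller differences, some of which rested on MD. In VA/VL they were led by *Fhdc1*, a formin, with 11.92 and 10.68, against 8.66 to 10.39 in the other nuclei (1.62 ± 0.18), followed by *Sst*, somatostatin (1.46 ± 0.23, and 0.80 ± 0.24 with an adjusted p of 0.0539 when MD was left out of the other nuclei), *Car4*, a carbonic anhydrase (1.25 ± 0.14), and *Adamtsl4* (1.22 ± 0.14). The serotonin receptor *Htr2c* (-1.94 ± 0.23) and *Cbln4* (-1.90 ± 0.21) were lowest there. In VPM/VPL they were *Gad1* (2.36 ± 0.17), *Lgi2* (1.95 ± 0.22), *Pvalb* (1.84 ± 0.16) and *Meis2* (1.82 ± 0.16), 3 of which belong to the list of GABA neurons, and *Stum* (-1.96 ± 0.15) and *Lhx2* (-1.94 ± 0.16) were lowest. With MD left out of the other nuclei the difference of *Gad1* was 0.86 ± 0.18 (adjusted p = 0.00199), that of *Lgi2* 1.73, that of *Pvalb* 1.29 and that of *Meis2* 1.31. In LG *Slc18a2*, the vesicular transporter of monoamines, had 8.31 and 9.00, against 6.03 to 8.01 in the other nuclei (1.85 ± 0.27), while the ventral tegmental area, a seat of dopamine neurons, had 12.33. *Penk* (1.63 ± 0.21), the kinesin *Kif5c* (1.58 ± 0.31) and *Tcte1* (1.47 ± 0.29) were higher in LG too, and *Stxbp6* (-1.25 ± 0.13, and -0.67 ± 0.13 when MD was left out) and another probe set of *Dsp* (-1.21 ± 0.16) lowest.

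**Figure D5:**
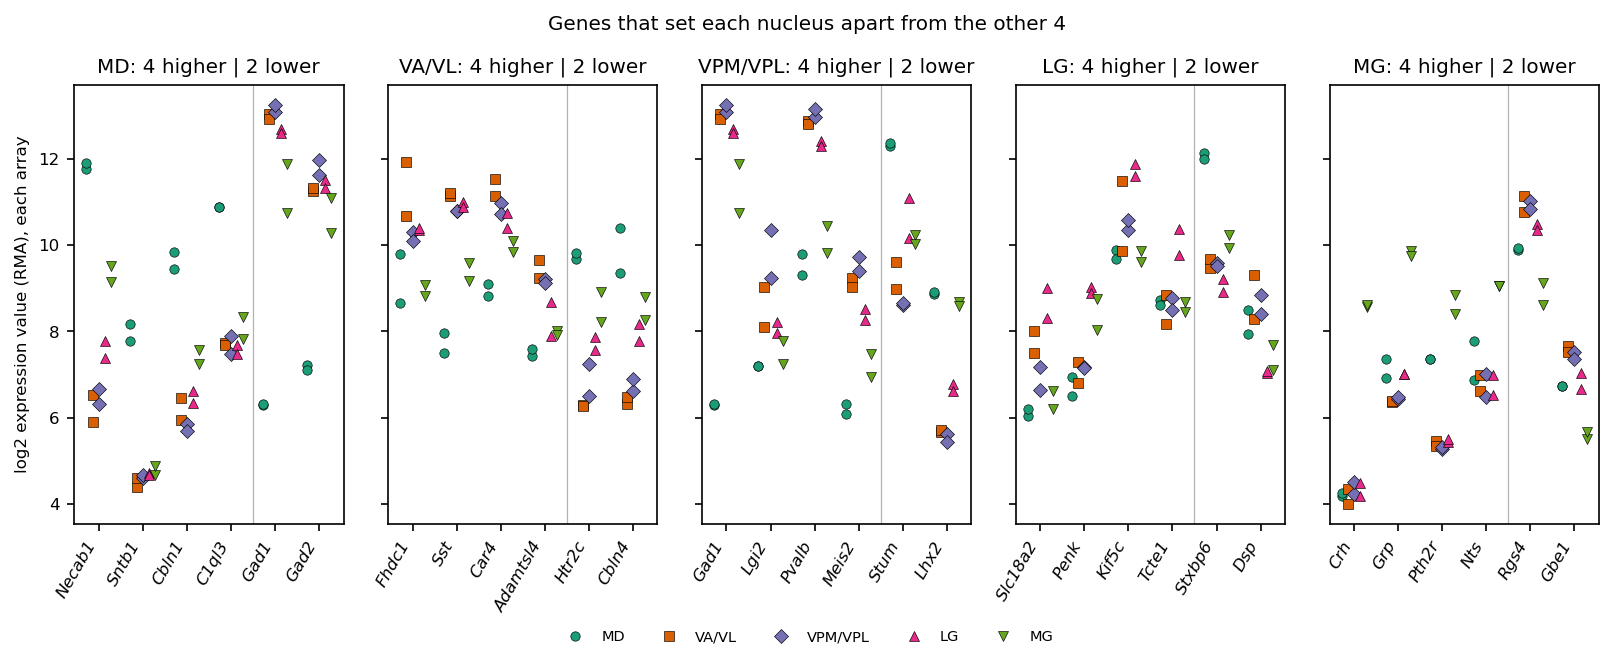
Log2 expression values (RMA) on each of the 2 arrays of the 5 nuclei, for the 4 genes most higher and the 2 most lower in each nucleus than in the other 4, with a panel for each nucleus. *Necab1* in MD (11.77 and 11.89) and *Crh* in MG (8.57 and 8.60) stand apart by more than 2 units from all other thalamic arrays, while the genes of VA/VL, VPM/VPL and LG stand closer to those of the next nucleus.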

How the data were processed

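The authors hybridised RNA pools of each region to Affymetrix arrays of the mouse genome, summarised the values with RMA, and deposited the log2 values as 1 table. The settings of RMA are not given in the sources used here, and array data hold no read depth, so the number of arrays limits the precision. From the 45101 probe sets 64 controls were left out. Gene names came from the platform annotation, with 34945 probe sets naming 1 gene, 932 several and 9160 none. The replicates of a region were averaged, and limma 3.58.1 (R 4.3.3) fitted 47 region means, with Benjamini-Hochberg adjustment over 45037 probe sets. Divisions were contrasted in a fit with division as the factor, and nuclei in a fit of the 94 arrays. Sampling periods, from the labels, were tested as batches. Named genes were the 20 with the largest positive difference whose thalamic arrays all lay above at least 40 other regions, the 20 with the largest negative difference, list members by their brightest probe set, and for each nucleus 4 higher and 2 lower genes. The nuclei, lists and rules were chosen with earlier results of these data known. Scripts were tested on simulated data. Normalisation, filters, fits, periods and left-out arrays were varied.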

Additional observations from a re-analysis of the deposited data

Results flagged for a closer look

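Over the 5 nuclei, 40 named genes were searched for a nucleus whose gap to the nearest other exceeded the 95% limit of Dixon's test, which chance passes in about 1 of 20 groups. Such a gap was seen for 4 genes: *Tnnt1*, at 10.94 in MD and 12.35 to 12.75 in the other nuclei, *Ntng1*, at 12.46 in MD and 12.02 to 12.11 in the others, *Lamp5*, at 7.72 in MG and 7.30 to 7.37 in the others, and *Cadps2*, at 9.14 in MG and 7.01 to 7.19 in the others.

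Regions outside the comparison carried a high level of 6 of the 20 higher genes, above all 42 other regions. In the retina *Tnnt1* had 9.80, *Synpo2* 9.71, *Ramp3* 9.86, *Sh3d19* 10.34 and *Smpx* 12.05. In the habenular nucleus *Vav3* had 10.79, above the 5 nuclei as well, which had 8.97 to 9.52.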

How the results depend on the processing

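Counts of called probe sets differed most with the unit of the test, with the nuclei used and within a sampling period. On arrays, without and with the replicate number as a block, 21056 and 21137 were called against all other regions, 20601 and 20633 against the telencephalon, 25287 and 25350 against the hypothalamus and 16770 and 16834 against the mesencephalon. Among the nuclei the replicate block gave 7902. Among the 5 nuclei the correlations of same-numbered deviations ran from -0.17 to 0.13. Only MD and VPM/VPL (0.10) were collected on the same days, so these values cannot decide whether replicate numbers pair the arrays. With 1 probe set a gene, and so fewer tested, the counts were 1103, 3584, 4844 and 1080. Within sampling period 1 the count against other regions was 377 and within period 2 it was 789, with fewer nuclei and regions in each, while sampling period as a factor over all regions gave 1764. Leaving out a nucleus or an array gave 1055 to 2220 calls against other regions, 4797 to 7027 against the telencephalon, 7702 to 10436 against the hypothalamus, 1321 to 2099 against the mesencephalon and 6016 to 9141 among the nuclei. The share of higher calls was 66.6%, and it ran from 44.8% on arrays and 57% with every other division counted equally to 77.3% without VA/VL, 85.8% within period 2 and 88.1% within period 1. Other normalisations, filters, groupings of regions and fits gave 1347 to 2638 calls. Of the gene values under these settings, 2555 kept direction and side of the threshold, 280 lost a call, 18 gained one and 5 changed sign, none of them called at first: *Lhx2* to 0.51 with divisions counted equally and 0.56 within period 2, *Gad1* to 0.45 without MD (range over nuclei left out -1.27 to 0.45) and 0.75 within period 1, and *Slc32a1* to 0.14 within period 1. The cause of the other shifts was not tested. An alternative chosen after seeing the data left each other nucleus in turn out of the 30 differences given for single nuclei. Of 120 values, 119 kept their call and 1, that of *Sst* in VA/VL without MD, lost it.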
